A study of Mus musculus with 12 samples.

Results

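Ece1, Cebpb, Sh3pxd2a, Ttc7, Ppard and Sdk2 are 6 of the 21631 protein-coding genes on mouse chromosomes 1 to 19 and X whose surroundings were compared across gastrulation. They were chosen by a measured value, their H3K27ac share: the bases of a gene's territory under H3K27ac peaks per Mb under peaks in the same library. This share was higher at each of the OB and EHF stages than at each of the ES and MS stages in all 6. A territory holds the bases within 100 kb of a gene's ends for which no other protein-coding gene has a nearer end. The embryos were C57BL/6 mice with no genetic change or treatment named in the labels, staged by their shape. The labels give Pre_PS (before the streak) at E6.0, ES (early streak) at E6.0 and E6.5, and MS (mid streak) at E6.0 and E7.0. They give LS (late streak) at E7.0 and E7.25, OB (no allantoic bud yet) at E7.25 and E7.5, and EHF (early headfold) at E7.5. Single cells were profiled with CoBATCH, in which Tn5 transposase, held at the mark by an antibody, inserts sequencing adapters beside it, and each of the 6 stages had 1 deposited peak list for H3K27ac and 1 for H3K4me1, or 12 lists in all. Without replicates there was no spread to set a difference against, and no test was made. Removal of extraembryonic tissue is stated for Pre_PS, ES, MS and LS embryos and not for OB and EHF embryos. A list pools the cells of embryos, so more cells with a peak and more of the mark in each cell cannot be told apart.

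H3K27ac is a histone mark of active promoters and enhancers. H3K4me1 lies on enhancers whether or not they are active, and on the flanks of promoters, and it can be laid down at an enhancer before H3K27ac is. During gastrulation cells leave the epiblast through the primitive streak to form mesoderm and endoderm, and enhancers of many genes change between these marks.

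The genes come from different pathways. Ece1 encodes endothelin-converting enzyme, a membrane protease that cuts the inactive precursors of endothelins to the active peptides, which act on neural crest and vessels. Cebpb encodes a bZIP transcription factor of the C/EBP family, and Ppard a nuclear receptor for fatty acids that binds DNA with an RXR partner. Sh3pxd2a encodes TKS5, the scaffold of podosomes and invadopodia, the actin-rich protrusions with which cells digest matrix. Sdk2 encodes a sidekick protein, an immunoglobulin-type adhesion molecule best known from synapses of the retina. Ttc7 (TTC7A in humans) encodes a subunit of the complex that holds the lipid kinase PI4KA at the plasma membrane.

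The start of a gene is where an H3K27ac peak would first be looked for, and RefSeq (GRCm38, the assembly named mm10) gave windows from 250 bases before to 50 bases after a start for 5 of the 6 genes. Ece1 has 4 such windows at 3 places, chr4:137861987-137862286 (which overlaps another), chr4:137913308-137913607 and chr4:137920543-137920842, all on the plus strand. They are printed because the late H3K27ac peaks of Ece1 lie between and beyond them, and the Cebpb window, chr2:167688665-167688964 on the plus strand, is printed as the contrast, a window inside peaks at all 6 stages. Capitals mark the motifs searched on both strands: the GC box GGGCGG, the CCAAT box CCAAT, the TATA box TATAAA and the E-box CACGTG, each also as its reverse complement. Neighbouring GC boxes in Cebpb overlap.
Ece1 upstream start: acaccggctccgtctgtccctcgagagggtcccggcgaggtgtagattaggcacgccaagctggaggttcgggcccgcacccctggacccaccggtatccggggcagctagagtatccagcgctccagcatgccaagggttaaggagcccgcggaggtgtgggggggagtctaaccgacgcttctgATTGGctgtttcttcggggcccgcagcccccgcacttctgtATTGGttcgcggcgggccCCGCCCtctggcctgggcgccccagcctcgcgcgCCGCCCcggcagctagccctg
Ece1 middle start: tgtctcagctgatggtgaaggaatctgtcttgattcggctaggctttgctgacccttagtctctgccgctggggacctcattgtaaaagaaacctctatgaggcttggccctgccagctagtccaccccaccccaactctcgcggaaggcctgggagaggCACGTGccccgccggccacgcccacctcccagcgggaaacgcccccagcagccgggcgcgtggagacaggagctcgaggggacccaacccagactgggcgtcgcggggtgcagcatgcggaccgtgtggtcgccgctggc
Ece1 downstream start: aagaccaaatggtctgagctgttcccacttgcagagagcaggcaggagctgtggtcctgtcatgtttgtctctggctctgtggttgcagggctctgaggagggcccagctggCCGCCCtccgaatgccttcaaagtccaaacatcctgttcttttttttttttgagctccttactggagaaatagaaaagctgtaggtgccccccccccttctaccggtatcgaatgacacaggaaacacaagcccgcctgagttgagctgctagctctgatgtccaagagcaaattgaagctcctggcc
Cebpb: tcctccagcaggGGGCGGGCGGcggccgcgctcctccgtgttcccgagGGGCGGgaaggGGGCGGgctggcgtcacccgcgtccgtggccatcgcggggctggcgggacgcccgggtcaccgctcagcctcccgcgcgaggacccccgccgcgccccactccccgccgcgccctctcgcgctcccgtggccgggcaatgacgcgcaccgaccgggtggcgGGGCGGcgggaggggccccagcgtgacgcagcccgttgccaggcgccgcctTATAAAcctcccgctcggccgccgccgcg
The Cebpb window is the richest of these in G and C, at 80.7%, with 50 CpG sites, 5 GC boxes and 1 TATA box. The upstream Ece1 window has 69.3% G and C, 28 CpG sites, 2 GC boxes and 2 CCAAT boxes, and the middle one has 65.3%, 21 CpG sites and 1 E-box. The downstream one has 53.0%, 5 CpG sites and 1 GC box, close to the medians of all 32817 windows, 52.7% and 7 CpG sites. Over all windows, 35.6% hold a GC box, 37.4% a CCAAT box, 13.6% a TATA box and 7.15% an E-box, so a match is a description of the letters only.

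H3K27ac lay on the starts before the late stages. The 300 bases of the Cebpb, Ttc7, Ppard and Sdk2 windows were under an H3K27ac peak at all 6 stages. At Ece1, the upstream window was covered over 145 bases at Pre_PS and in full at the 5 later stages, and the middle one was free of H3K27ac at Pre_PS and fully covered from ES on. The downstream, CpG-poor window was covered over 0 bases at Pre_PS, 183 at ES, 0 at MS, 173 at LS, 71 at OB and 1 at EHF. In these 5 genes the higher late share was thus not a first H3K27ac peak at the printed or matched starts.

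The H3K27ac lists held 30072 to 39635 peaks over 35.9 to 42.1 Mb at the 5 later stages, and 13398 peaks over 14.3 Mb at Pre_PS. The H3K4me1 lists held 35646 to 47849 peaks over 39.1 to 51.3 Mb at the later stages, and 36739 peaks over 23.4 Mb at Pre_PS. The background read from the weakest peaks was 0.211 to 0.330 fragments for H3K27ac from ES to EHF against 0.0499 at Pre_PS, and 0.164 to 0.347 against 0.0144 for H3K4me1. Pre_PS was thus the shallowest library of either mark, and 67.3% of its H3K4me1 peaks stood at the lowest value a peak could have. MS had the fewest H3K27ac peaks and the lowest H3K27ac background of the 5 later stages. A peak missing at Pre_PS or MS may be a peak below the depth of that list. The share divides by the bases covered in each library and does not remove this limit.

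The H3K27ac shares that chose the genes follow in the order Pre_PS, ES, MS, LS, OB and EHF, in bp per covered Mb. They were 44.1, 123, 100.3, 239, 269 and 244 for Ece1. They were 442, 734, 592, 782, 791 and 785 for Cebpb. The widest relative step was that of Ece1, whose mean over OB and EHF was 2.30 times its mean over ES and MS, and the narrowest that of Cebpb, at 1.19 times. For Sh3pxd2a the shares were 196, 308, 353, 506, 507 and 470. For Ttc7 they were 152, 570, 382, 597, 593 and 603. The ES value of Ttc7 was close to its late values and the MS value stood apart below them. For Ppard they were 117, 338, 346, 365, 456 and 460. For Sdk2 they were 130, 409, 358, 556, 546 and 455. Ppard is the gene whose LS value was still close to ES and MS, with the step at OB, while the other 5 were higher from LS on.

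By construction 6 of 6 genes were higher at OB and EHF, as were 19.9% of the 17449 genes with any H3K27ac coverage, with 12.6% lower at both; nothing is read from this count. Ranked by the mean difference among genes that were higher, the 6 held places 3 to 9, between 158 bp per covered Mb for Sh3pxd2a and 116 for Ppard. Above them stood 1700001O22Rik at 216 and Prex1 at 177, among them Rxra at 120, and just outside came Bmp7 at 107 and Hrh1 at 106.7. The gap between the lower of OB and EHF and the higher of ES and MS was 121 for Ece1, 117 for Sh3pxd2a, 110 for Ppard, 51.3 for Cebpb, 46.2 for Sdk2 and 22.5 for Ttc7. A rank of this kind favours genes with many peaks: the median difference over the 6 was 124, over all genes with coverage 0.759, and over the 361 genes with at least 10 kb covered on average 9.70. In kb under peaks and not per covered Mb, 3 of 6 were higher at OB and EHF than at ES and MS (Ece1, Sh3pxd2a and Ppard), against 12% of genes. Cebpb had 30.4 kb covered at ES and 28.8 and 28.4 kb at OB and EHF, and Ttc7 23.6 kb against 21.6 and 21.8 kb. Sdk2 had 16.9 kb at ES and 16.5 kb at EHF.

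LS was not used to choose the genes. There the H3K27ac share was above both ES and MS in 6 of 6, against 26.7% of all genes with coverage and 51.3% of the 3466 genes that were higher at OB and EHF. The choice of genes high at OB and EHF and low at ES and MS already favours a high LS count. The 6 also stood near the top of the ranking by mean difference, so even the 51.3% is not an equal reference. Nothing is read from this count.

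How far the higher late shares rested on the weaker peaks differed between the genes. With 13398 H3K27ac peaks from each list, the length of the Pre_PS list, 3 of 6 genes remained higher at OB and EHF than at ES and MS, and the mean differences of Sh3pxd2a and Sdk2 were -128 and -55.4, while that of Ttc7 was 147. With the upper 50% of each list 3 of 6 were higher, and the differences of Ece1 and Sh3pxd2a were -12.7 and -23.8, while those of Ttc7 and Cebpb were 401 and 163. Without the peaks that stood at the lowest value of their list all 6 were higher. With territories of 50 kb 5 of 6 were higher, and the differences of Cebpb and Sh3pxd2a were 30.2 and 89.9. With 30072 peaks from each of the 5 later lists, the length of the MS list and an alternative chosen after seeing the data, all 6 were higher. The counts in this paragraph have no share of all genes beside them and are description only.

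**Figure D1:**
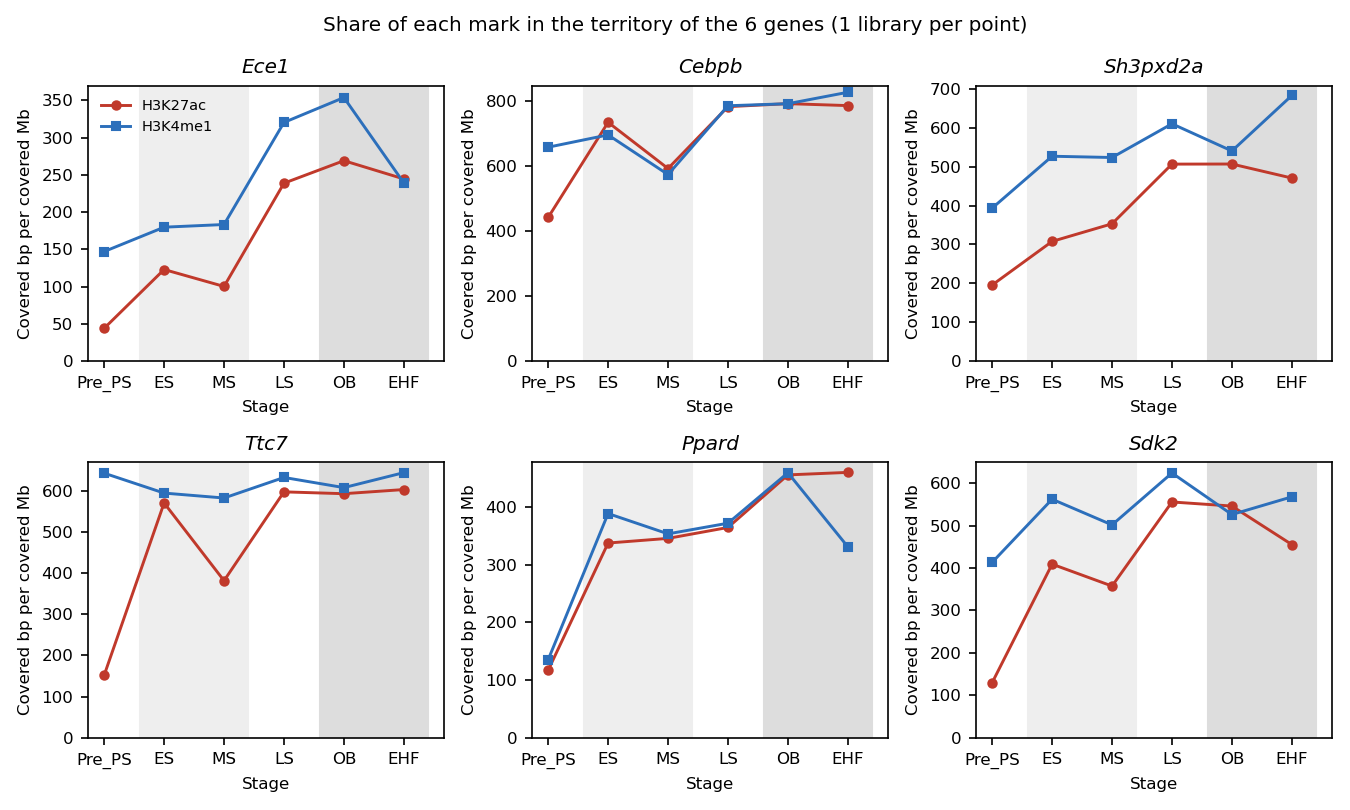
H3K27ac and H3K4me1 shares of the 6 territories (vertical axes, covered bp per covered Mb of the library) at the 6 stages in order, 1 library per point and no error bars. In H3K27ac, 5 genes step up between MS and LS and Ppard between LS and OB; Ttc7, Cebpb, Ece1 and Sdk2 are lower at MS than at ES.

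H3K4me1, which the choice did not use, followed a less even course. Its shares, again from Pre_PS to EHF, were 147, 180, 183, 320, 354 and 239 for Ece1, whose OB value was the highest and EHF value the lowest of the 3 late stages. For Cebpb they were 657, 695, 573, 785, 791 and 826, so that the 3 late values lay above all earlier ones. For Sh3pxd2a they were 393, 527, 523, 610, 540 and 683, with OB only 13.5 above ES. For Ttc7 they were 643, 594, 582, 632, 608 and 644, so that no late value stood clear of Pre_PS. For Ppard they were 135, 389, 354, 372, 460 and 331, high at OB alone. For Sdk2 they were 413, 562, 502, 624, 526 and 568, highest at LS, with ES and EHF close to each other. H3K4me1 was thus higher at both OB and EHF than at ES and MS in 4 of 6, the exceptions being Ppard and Sdk2, against 13.9% of the 18406 genes with H3K4me1 coverage; 12.8% were lower at both. With the upper 50% of each list the count was 0 of 6, with differences of -8.56 for Ece1 and -5.89 for Cebpb, and in covered bp it was 2 of 6. Neither of these counts has a share of all genes beside it, so both are description only. Among the genes with the H3K27ac pattern the H3K4me1 share was higher in 17.8%. The median H3K4me1 difference over the 6 was 62.0, against 0.256 over all genes and 12.6 over the 595 genes with at least 10 kb covered on average. Of those 595 genes, 155 were higher at both OB and EHF than at ES and MS, and 57 were lower at both. At LS the H3K4me1 share exceeded ES and MS in 5 of 6, not in Ppard, against 25.4% of all genes and 31.5% of the genes whose H3K27ac share was higher at LS.

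To see which single peaks came, the H3K27ac peaks of all stages were merged into regions, and a region was present at a stage where at least 1 bp of a peak lay in it. The 6 territories held 129 regions, 19 for Ece1, 23 for Cebpb, 29 for Sh3pxd2a, 18 for Ttc7, 13 for Ppard and 27 for Sdk2. Of these, 105 lay inside their gene; the exception was Cebpb, a short gene with 1 of its 23 regions over it and nearly all others in the stretch towards Ptpn1. At the 6 stages 16, 78, 56, 99, 84 and 94 regions were present, and 45 were present at all 5 later stages. Thus the MS list held fewer of them than any later list.

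New regions, absent at ES and MS and present at OB and EHF, numbered 3 of 129 (2.33%), against 2.38% of all 51619 merged regions. The members' percentage is that of the background. The count ranged from 1, with territories of 50 kb, to 6, with 30072 peaks from each later list. All 3 lay inside genes and had H3K4me1 at ES or MS, as did 86.5% of the new regions of the genome. In Sh3pxd2a, the region chr19:47334478-47335249 had no H3K27ac at Pre_PS, ES or MS and 713, 493 and 677 bp at LS, OB and EHF. Its H3K4me1 covered 427 bp at ES and 675 bp at MS, so that the methylation peak stood at 2 stages before the acetylation peak. The widest, chr19:47374797-47376438 in the same gene, had 1626, 1441 and 513 bp of H3K27ac at LS, OB and EHF. Its H3K4me1 was absent at ES and covered 463 bp at MS and 1567 bp at LS. In Sdk2, chr11:113785696-113786076 had H3K27ac from OB on, with 316 bp there and 361 bp at EHF, and carried 295 and 354 bp of H3K4me1 at ES and MS.

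A looser view counts regions first seen at LS or later. These were 43 of 129 (33.3%), against 19.9% of all regions; the choice of genes used the stages on both sides, so nothing is read from that excess. LS was the stage of arrival for 26, OB for 7 and EHF for 10. Seen at a single stage were 28 of the 43, which leaves 15 with a second list to back them. H3K4me1 at ES or MS was present at 22 of the 43 (51.2%), against 62.9% of such regions in the genome, and at 12 of the 15 (80.0%) against 81.3%. Where a late acetylated region was seen in more than 1 list, earlier H3K4me1 was thus as common as elsewhere in the genome. Of the other 21, 15 had H3K4me1 first at LS, OB or EHF, 4 at Pre_PS but neither ES nor MS, and 2 at no stage. An H3K4me1 peak below the depth of the ES and MS lists would be counted here as absent.

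**Figure D2:**
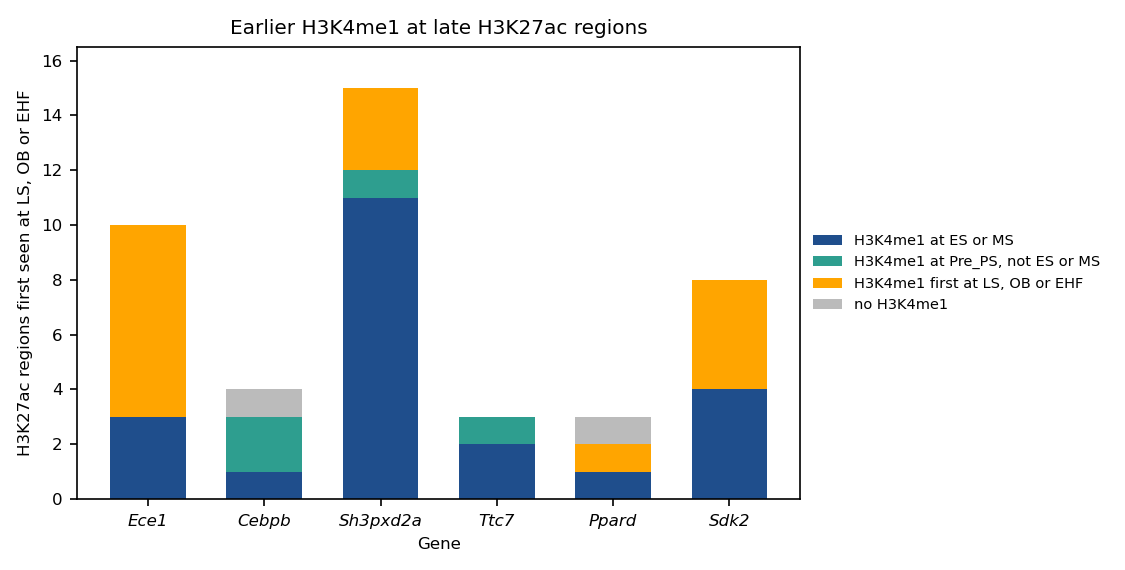
Number of H3K27ac regions first seen at LS, OB or EHF in each territory (vertical axis), split by when H3K4me1 was present in the same region. Sh3pxd2a has the most, 15, of which 11 had H3K4me1 at ES or MS; Ece1 has 10, of which 7 had H3K4me1 only from LS on.

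The covered bases show how the difference was made up. The mean of OB and EHF exceeded the mean of ES and MS by 22.5 kb of H3K27ac over the 6 territories. Regions that already had a peak at ES or MS and had one at OB or EHF, 80 in number, made up 15.1 kb of it. Regions seen at 1 of OB and EHF and at neither early stage gave 6.42 kb (28 regions), the 3 new regions 1.90 kb, and 4 regions seen only early took away 0.918 kb. Older regions therefore carried most of the difference; with the upper 50% of each list they carried 7.32 kb, and with 13398 peaks from each list -1.27 kb. Within the 15.1 kb, 8.77 kb came from regions present at both ES and MS, which together covered more bases late. Regions present at ES but not MS gave 4.98 kb, and those present at MS but not ES 1.35 kb. Part of the 8.77 kb came where separate early peaks were called as a single peak late, as at the 3′ end of Ttc7. A region without a peak at MS counts as 0 bp there in the early mean. A peak below the depth of the MS list therefore adds to the difference, even where its width was the same at ES and late.

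**Figure D3:**
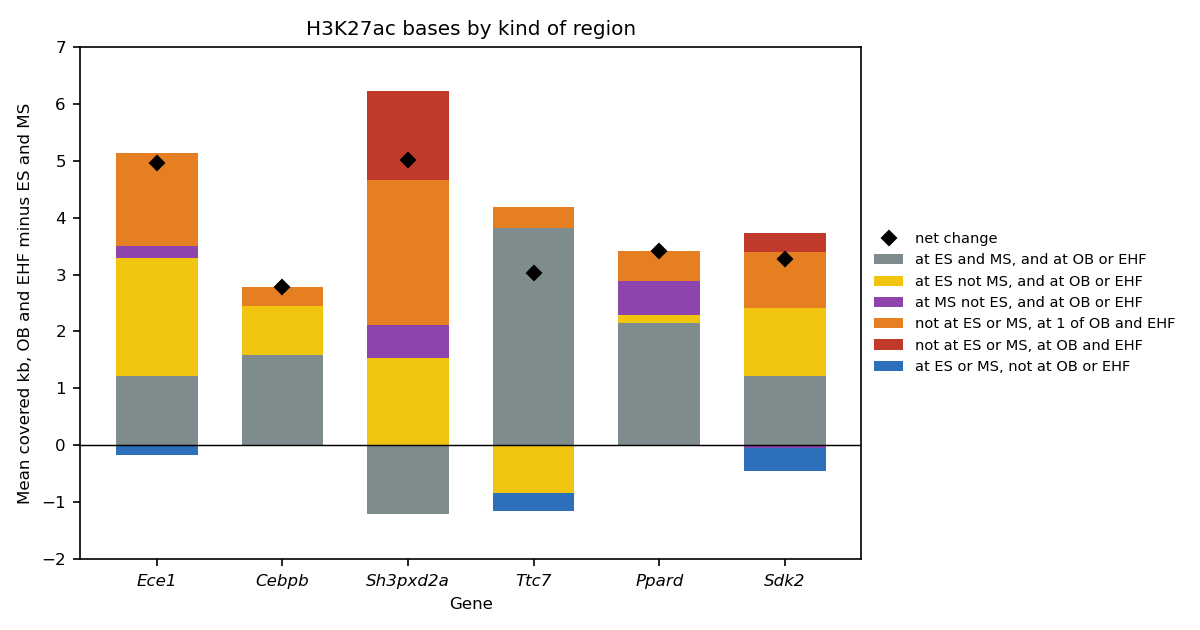
Mean covered kb of H3K27ac at OB and EHF minus that at ES and MS (vertical axis) for each territory, stacked by kind of region, with the net change as a diamond. Regions with a peak in both early lists make up the largest stacked part in Cebpb, Ttc7 and Ppard, regions seen at ES and not at MS in Ece1, and regions absent from both early lists, over both colours, in Sh3pxd2a and Sdk2.

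Ece1 (chr4:137862237-137965229) had the largest ratio of late to early share of the 6, with 1, 7, 5, 13, 11 and 12 H3K27ac peaks from Pre_PS to EHF. The widest single difference was at chr4:137937716-137940426, centred 76.8 kb into the gene and beyond the downstream start. It covered 0 bp at Pre_PS, 746 at ES, 0 at MS, 2696 at LS, 1917 at OB and 2036 at EHF. It was thus a narrow peak at ES that was wide at each late stage. H3K4me1 was there at ES and MS, with 879 and 693 bp, and reached 1359 bp at LS. From 76.838 to 77.908 kb, within the part where H3K27ac was wider late, no list had an H3K4me1 peak. A further region, chr4:137920660-137923313, which touches the downstream start window, had 613 bp at ES, 1035 at MS, 1430 at LS, 2542 at OB and 1192 at EHF. At the upstream start the H3K27ac peak was about as wide at ES (1200 bp) as at EHF (1216 bp), and the authors' mean fold over local background, a value of each peak within its own list, was 13.4 at ES and 26.3 at EHF. Ece1 had 10 of 19 regions first seen at LS or later, 9 of them inside the gene, between 15 and 96 kb from its start; the annotation used here does not tell introns from exons. Of these 10, 3 had H3K4me1 at ES or MS, where the lists of that mark were shallower than from LS on. In the other 7 both marks were first seen at LS, OB or EHF. In 3 of these 7 H3K4me1 came first, at LS or OB, with H3K27ac at EHF, and in 4 both marks were first seen at the same stage. Of the latter, the region at chr4:137886139-137886556 had both marks first at LS: H3K27ac covered 418 bp at LS, 310 bp at OB and 0 at EHF, and H3K4me1 360, 304 and 303 bp at LS, OB and EHF. In chr4:137905114-137905470, of the former kind, H3K4me1 covered 316 and 268 bp at LS and OB, and H3K27ac 357 bp at EHF only. Of the 1.65 kb with H3K27ac at both OB and EHF and at neither ES nor MS, 31.4% had carried H3K4me1 at ES or MS. In the other 5 genes this was 66.6% to 100%, and in the genome 81.4%. Most of the Ece1 bases without it lay in the stretch from 76.838 to 77.908 kb, so the low value rests mainly on 1 region. The part of the H3K27ac bases of Ece1 under an H3K4me1 peak was 80.4%, 84.7%, 77.9%, 61.9% and 66.5% from ES to EHF, against 83.1%, 83.2%, 88.9%, 91.9% and 84.4% in the whole libraries. Low values were also seen in other genes, early and late: Sh3pxd2a at MS, 65.3%, and at OB, 68.8%, Sdk2 at ES, 70.6%, and Ppard at EHF, 66.8%.

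Cebpb (chr2:167688915-167690432) has its peaks in an array that runs from the gene to 101 kb beyond its start, over a stretch that also holds 6 non-coding RNA genes. Assigning them to Cebpb rests on distance alone. The peak over the gene itself covered 2340, 6015, 3624, 4868, 4049 and 4567 bp of chr2:167686369-167692547 from Pre_PS to EHF, so it was widest at ES. The region chr2:167774573-167779250, 88.0 kb from the start, held 4509, 4637, 4578, 4578 and 4429 bp from ES to EHF and thus varied little. A wide late peak stood at chr2:167726018-167727678, with 600 bp at ES, 0 at MS, 470 at LS, 466 at OB and 1620 at EHF. Its H3K4me1 covered 592 and 1621 bp at ES and MS, before the wide peak of EHF. The 4 regions first seen at LS or later were each seen once, and 1 of them had H3K4me1 at ES or MS. The share at ES, 734, was much nearer to the late values than that at MS, and with ES alone as the early stage the mean difference was 54.3, against 196 with MS alone.

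Ppard (chr17:28232754-28301469) differed in the timing of its share and its new bases, though its covered kb rose more from MS to LS than from LS to OB. Its new bases came to 2.03 kb, of which 27.3% were already acetylated at LS, against 75.1% over the 6 genes and 64.1% over the genome. The region chr17:28284555-28287375, centred 53.2 kb into the gene, had 1423 bp at ES, 554 at MS, 1354 at LS, 2748 at OB and 2761 at EHF. The widths at OB and EHF exceeded those of all earlier stages. H3K4me1 had spanned 2817 bp of it at ES, 1202 at MS and 2739 at LS, so that the region had its H3K4me1 width before its H3K27ac width. At the far end of the gene, chr17:28296966-28301409 held 3801, 1876, 4428, 4332 and 4335 bp from ES to EHF, and here MS stood apart from the other stages. A region with no H3K27ac at ES, chr17:28251386-28252773, appeared at MS with 1164 bp and stayed at 1088 to 1388 bp afterwards. Its fold at MS, 3.30, was the lowest of that list, so its stage of arrival rests on a peak of the weakest kind. H3K4me1 covered 1288 bp of it at ES. Ppard had 3 regions first seen at LS or later, and H3K4me1 was at 1 of them at ES. At a second, H3K4me1 covered 172 bp at LS and H3K27ac came at EHF, with the lowest fold of that list, 3.10. Of its new bases 96.0% had H3K4me1 at ES or MS.

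Sh3pxd2a (chr19:47260174-47464612) was the gene with most arrivals: 15 of 29 regions were first seen at LS or later, 11 of them at LS and 4 at OB. In 11 of the 15 H3K4me1 was present at ES or MS, and in all 5 of those seen at more than 1 stage. Its regions present at ES and MS together covered less late than early, by a mean difference of -1.22 kb, chiefly through chr19:47313452-47320800. That region, 57.0 kb from the lower-coordinate end of the gene, covered 806, 3075, 6687, 5905, 3220 and 3516 bp from Pre_PS to EHF. Its covered bases were most at MS and LS and about as few at OB and EHF as at ES. At MS a single peak ran from 53.7 to 60.4 kb, where ES, OB and EHF had separate peaks with gaps between them. The peaks on either side of the gaps were about as wide at OB and EHF as at ES. The new regions added 1.56 kb and those seen at 1 of OB and EHF 2.55 kb. Much of the latter was a single OB peak at chr19:47458087-47460740, 2654 bp wide, with no H3K27ac in any other list and with H3K4me1 over 372 bp at Pre_PS, 485 bp at LS and 144 bp at EHF. The peak at the higher-coordinate end, chr19:47463566-47465161, was steady at 1257 to 1536 bp from ES to EHF. The gene has 4.44 kb in no territory, since they lie over 100 kb from both ends.

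Sdk2 (chr11:113776374-114067029, minus strand) has its regions near both ends, and 90.7 kb in its middle belong to no territory. The peak at its start, chr11:114064702-114067620, covered 1285 bp at Pre_PS and 2582 to 2919 bp at the 5 later stages. Higher late values lay in the downstream part of the gene, near its 3′ end. There chr11:113777975-113781282 had 1923 and 1893 bp at ES and MS and 3225, 3092 and 3308 bp at LS, OB and EHF, with no overlap between early and late values. H3K4me1 covered 3283 and 3308 bp of it at ES and MS, the full width before the H3K27ac peak widened. In chr11:113832001-113835175 H3K27ac went from 978 bp at ES and 0 at MS to 3157 bp at LS, then 1877 at OB and 912 at EHF, so that the LS width was not kept. Of 8 regions first seen at LS or later 4 had H3K4me1 at ES or MS, and of its 1.86 kb of new bases 97.3%.

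Ttc7 (chr17:87282808-87381770) had the largest drop in share from ES to MS of the 6. It had 15 regions present at ES, 8 at MS and 14, 11 and 15 at LS, OB and EHF. Of the 15, 7 had no peak at MS, and 5 of these had one again at OB or EHF. Over the 6 genes 28 of 78 ES regions (35.9%) had no peak at MS, against 28.4% in the genome, and 21 of 129 were present at ES and LS and not at MS, against 10.5%; the genes were chosen for low shares at ES and MS, so nothing is read from these counts. At chr17:87375134-87381454, at the 3′ end of the gene, H3K27ac covered 0, 4287, 2827, 5778, 6172 and 5863 bp from Pre_PS to EHF. Its peaks were separate at ES and MS, and at LS, OB and EHF a single peak spanned the gap between them. H3K4me1 had covered 4870 and 5742 bp of this region at ES and MS. It covered 4572 bp at Pre_PS, where the shallow H3K27ac list had no peak. The highest H3K4me1 fold there was 1.99, close to the lowest fold of the Pre_PS list, 1.97, at which 67.3% of its peaks stood. The H3K4me1 at Pre_PS thus rests on weak peaks. Upstream of that region, chr17:87356985-87360897 had 799 and 1048 bp at ES and MS, 3689 and 3730 bp at LS and OB, and 1067 bp at EHF. Its single LS and OB peaks spanned the gap between peaks that were separate at MS and EHF. A region in the first part of the gene, chr17:87312375-87315555, went the other way, with 2982 bp at ES, 0 at MS and OB, 408 at LS and 1452 at EHF. All 1.76 kb of new bases had H3K4me1 at ES or MS (100%). With ES alone as the early stage the mean difference of the share was 27.6, against 216 with MS alone. Apart from the 3 new regions, the single regions named for the 6 genes were picked after their widths were seen and serve as description only.

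**Figure D4:**
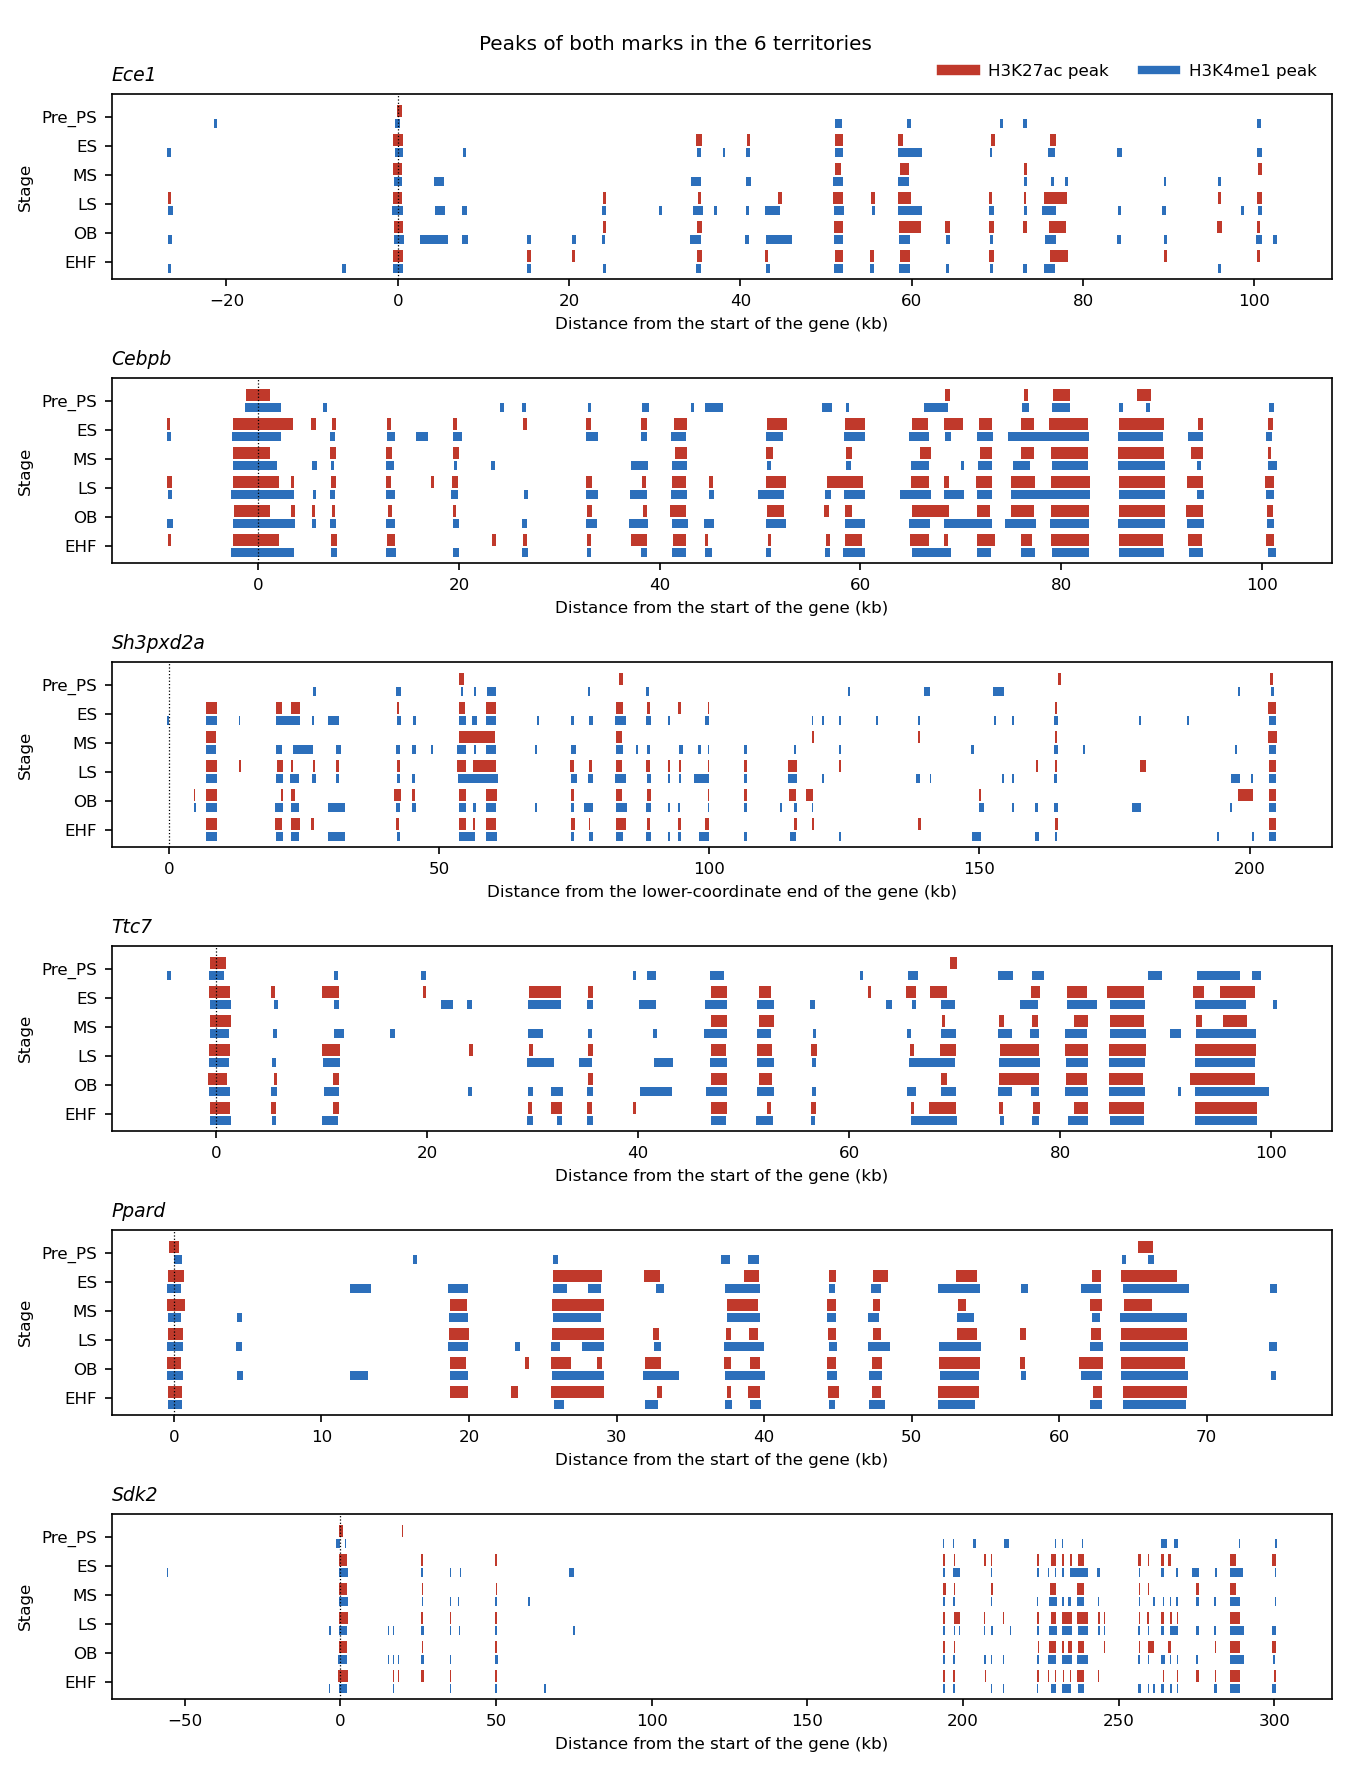
Peaks of H3K27ac and H3K4me1 in the 6 territories by stage (1 row per library), drawn by distance in kb from the gene's start, or from its lower-coordinate end for Sh3pxd2a; bars are peaks to scale. The blank stretch of the Sdk2 panel includes the 90.7 kb in no territory; 9 of the 10 late regions of Ece1 lie between 15 and 96 kb, and the widest late peak of Ttc7 at the right end.

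Over the 6 genes, 82.7% of the 9.33 kb of bases acetylated at both OB and EHF and at neither ES nor MS had H3K4me1 at ES or MS, against 81.4% of the 1098 kb of such bases in the genome. In these bases earlier H3K4me1 was as frequent as elsewhere, with Ece1 at the low end, mainly through a single stretch of 1 region. Over all 43 regions first seen at LS or later it was less frequent, 51.2% against 62.9% in the genome. By gene this ran from 25.0% in Cebpb and 30.0% in Ece1 to 73.3% in Sh3pxd2a.

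Genes that work with the 6 were read from lists chosen for their function; over all genes with coverage 19.9% were higher and 12.6% lower at OB and EHF than at ES and MS. Of the other 9 genes of the endothelin system, 4 had a higher H3K27ac share at OB and EHF than at ES and MS and 1 a lower share. Edn2, a ligand whose precursor Ece1 can cut, had 117 and 87.0 at ES and MS and 162, 176 and 150 at LS, OB and EHF. The receptors Ednra (31.4, 25.9, 20.3, 32.0 and 36.2 from ES to EHF) and Ednrb (9.44, 13.9, 11.7, 20.6 and 15.4) were among the 4, at lower shares. Of the other 5 C/EBP genes 1 was higher and 2 lower, Cebpa among them, whose shares were 152 and 129 at ES and MS against 119 at OB and 125 at EHF. Of the other 10 podosome genes 3 were higher and 1 lower. Mmp14, the membrane metalloprotease of invadopodia, had 53.5 and 56.9 at ES and MS and 82.7, 79.6 and 81.1 at the late stages, while Sh3pxd2b, which encodes the related scaffold TKS4, had 56.7 and 16.3 and then 45.2, 21.5 and 34.2. Of the other 6 genes of the PI4KA complex 3 were higher and 2 lower. Ttc7b, the paralog of Ttc7, had 126 and 83.1 at ES and MS and 107, 155 and 159 at LS, OB and EHF. Of the other 10 PPAR and RXR genes 3 were higher and none lower; Rxra, which encodes a partner of PPARD, had 277 and 252 and then 364, 380 and 389. Ppara (176 and 270, then 204, 195 and 195) and Pparg (58.3 and 68.2, then 54.9, 59.1 and 71.3) did not follow Ppard. Of the other 6 sidekick and synaptic adhesion genes 1 was higher and 1 lower, the latter being Sdk1, the paralog of Sdk2, with 139 and 178 and then 121, 103 and 82.8. The medians of the H3K27ac difference in these lists, without the 6 genes, lay between -3.70 and 2.78, against 0.759 over all genes.

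Since removal of extraembryonic tissue is not stated for OB and EHF, the summed H3K27ac shares of marker lists were read beside these results. From ES to EHF they were 252, 236, 269, 225 and 286 for 9 visceral endoderm genes, with Afp and Spink1 at 0 at all stages. They were 1046, 1093, 1183, 1189 and 1032 for 10 trophoblast genes, with Tpbpa at 0, and 399, 393, 389, 436 and 464 for 7 parietal endoderm genes, with Plat at 0. Of these 3 sums that of parietal endoderm was higher at both OB and EHF than at ES and MS, and the other sums were not. The parietal endoderm median difference was -0.727, and Col4a2, whose share was 87.6 at ES, 124 at MS, 146 at OB and 196 at EHF, differed by more than the sum did. The sum of 7 extraembryonic mesoderm genes, which the embryo itself also uses, was 953 and 1024 at ES and MS and 1098, 1112 and 1229 at LS, OB and EHF, and 3 of the 7 genes were higher at both OB and EHF. The 8 blood and endothelium genes gave 714, 704, 665, 760 and 801, with 2 of 8 higher, and the 7 primitive streak genes gave 762, 896, 762, 820 and 744, with none higher and 1 lower; over all genes 19.9% were higher and 12.6% lower. The part of such cells in the shares of the 6 genes was not tested.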

How the data were processed

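Bowtie2, MACS2, Picard and deepTools are named in the submitters' processing notes, as is the mm10 build; the sources used here give no versions, settings or cell numbers. Each stage and mark has 1 deposited broad peak list. Their fold is the authors' ratio of fragments over local background, averaged over each peak, and it serves here as description only. Both −log10 values deposited by the authors, of p and of q, come from their peak caller; the former served to read depth and the latter to rank peaks. The deposited score was not used.

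Computed here, with Python 3.11.15, numpy 2.4.6, pandas 2.3.3, scipy 1.17.1 and matplotlib 3.10.9: peaks on chromosomes 1 to 19 and X were cut to territories of the RefSeq protein-coding genes of GRCm38, which gives gene ends without exons. Adjacent or overlapping H3K27ac peaks of all stages were merged into regions, which count as present at an overlap of 1 bp. Depth was solved from the weakest peaks, as fold = (pileup + 1)/(background + 1) with a Poisson p, and each of the 12 lists gave 1 solution. Tested on simulated data, covered bases matched a count base by base in 240 of 240 territories, and 157 of 160 depth solutions were found without a second candidate. The rule for named genes was the 6 members, the 2 most alike genes of each, 6 functional lists, and the widest or longest-lasting new regions. Other regions were named after their values were seen. The members, lists and comparisons were chosen with earlier results of these data known. With 1 library per stage and mark there was no test. Alternatives used other sets of peaks, territories, overlaps and stages.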

Additional observations from a re-analysis of the deposited data

How the results depend on the processing

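The dependence on the weaker peaks differed between genes. With lists cut to equal length (13398 peaks for H3K27ac and 35646 for H3K4me1, by −log10 q), 3 genes had a higher H3K27ac share at OB and EHF than at ES and MS in place of 6. The mean differences of Sh3pxd2a and Sdk2 were then -128 and -55.4, that of Ttc7 was 147, that of Ppard in H3K4me1 was -7.28, and older regions changed by -1.27 kb in place of 15.1 kb. With the upper 50% of each list the counts of genes were 3 for H3K27ac and 0 for H3K4me1 (4 with all peaks), and older regions added 7.32 kb. There the differences were -12.7 for Ece1, -23.8 for Sh3pxd2a, 401 for Ttc7 and 163 for Cebpb in H3K27ac, and -8.56 for Ece1, -5.89 for Cebpb and -89.6 for Sdk2 in H3K4me1. Without peaks at the lowest fold and p all 6 genes were higher in H3K27ac, there were 5 new regions, 5 of them with H3K4me1 at ES or MS, in place of 3 and 3, and the H3K4me1 difference of Sdk2 was -3.02. With 30072 H3K27ac and 35646 H3K4me1 peaks from each of the 5 later lists, an alternative chosen after seeing the data, there were 6 new regions, 5 with H3K4me1 at ES or MS, 6 genes kept the higher H3K27ac share, and the H3K4me1 difference of Ppard was -7.28. Territories of 50 kb left 1 new region, with H3K4me1, and 5 genes higher in H3K27ac, with differences of 30.2 for Cebpb and 89.9 for Sh3pxd2a. In covered bp the counts were 3 and 2, and Sdk2 changed by -485 bp in H3K4me1. The H3K4me1 difference of Sdk2 was -15.2 with ES alone as the early stage and -5.81 with OB alone as the late stage, and that of Ppard was -40.1 with EHF alone. The causes were not tested. Apart from H3K27ac in covered bp, these counts of genes have no share of all genes beside them and are description only. Over 11 alternatives 62 of 66 H3K27ac differences and 56 of 66 H3K4me1 differences kept their direction. For H3K27ac, the alternatives with ES, MS, OB or EHF alone could not reverse, because the choice of genes fixed their direction. The H3K27ac tally is therefore no measure of robustness.

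With 1 library per stage and mark, leaving out a library within a group was not possible. No paired analysis was possible because the labels give no replicate numbers. Depth limits what an absent peak means, most at Pre_PS and next at MS for H3K27ac and at MS and ES for H3K4me1.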

Other observations

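For each gene the other genes with the most similar course were found by Pearson's r over 10 values, the shares of both marks from ES to EHF each divided by the mean of their mark, among 5499 genes with at least 2 kb covered in each mark. The 10 values come from the same libraries for every gene, so the r is a description. Rgs3, which encodes a regulator of G protein signalling, was closest to Ece1 (r = 0.920), with H3K27ac shares of 248, 170, 286, 312 and 300.02 from ES to EHF; 1700018B08Rik followed (r = 0.918). Cckbr (0.936) and Epha1 (0.927) were closest to Cebpb. Gm38821 (0.961) and Rras2, which encodes a RAS-related GTPase (0.949), were closest to Sh3pxd2a, and Rras2 had 38.9 and 58.0 at ES and MS and 93.4, 87.6 and 85.5 afterwards. Gpd1 (0.958) and Phykpl (0.957) shared the MS dip of Ttc7, with 104, 39.0, 99.7, 107 and 113 for Gpd1. Asb6 (0.914) and Col4a2, which encodes a chain of basement membrane collagen (0.910), were closest to Ppard, and Col4a2 had 87.6, 124, 114, 146 and 196. Tpra1 (0.904) and Flnc, which encodes the actin crosslinker filamin C (0.904), were closest to Sdk2, with 371, 335, 462, 450 and 426 for Flnc.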
